A study of Papio anubis with 25 samples.

Results

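The carbonic anhydrase family was followed through 5 tissues of the olive baboon (Papio anubis) by the transcripts of 10 of its genes: CA1, CA2, CA3, CA4, CA5A, CA6, CA9, CA12, CA13 and CA14. The members were taken by symbol from a table of 21287 genes, and all 10 symbols were found there once. The libraries were made from total RNA of flash-frozen parotid gland, submandibular gland, sublingual gland, pancreas and liver, with 1 library for each tissue of each of 5 animals, 25 in all; the glands were those of the left side, and the labels name no treatment. The only male was baboon 5, so its sex cannot be told apart from the animal, and the ages of the animals are not given in the sources used here. The study's question was the expression of amylase genes in these organs of Old World monkeys. Its macaque libraries were not analysed here.

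Carbonic anhydrases are zinc enzymes that speed the conversion of carbon dioxide and water to bicarbonate and a proton. The family members share this reaction and differ in where they sit: CA6 is secreted, CA4, CA9, CA12 and CA14 face the outside of the cell from the plasma membrane, CA1, CA2, CA3 and CA13 are cytosolic, and CA5A is mitochondrial. In salivary glands and pancreas the reaction supplies the bicarbonate of the secreted fluid, and in liver it supplies bicarbonate to ureagenesis and gluconeogenesis.

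Levels are in TPM, transcript abundances scaled by length to the same total in each library, so the deposited table carries no sequencing depth. Several gland libraries held transcripts of other tissues. In the parotid gland, 5 adipocyte markers summed to 19002 TPM in baboon 2 against a median of 66.2 TPM, and 4 lymphoid markers to 765 TPM in baboon 5 against a median of 13.4 TPM. In the submandibular gland, the library of baboon 2 had the lowest sum of 6 acinar markers, 341 TPM against a median of 8347 TPM, with 6014 TPM of erythroid markers, and that of baboon 5 had 7018 TPM of adipocyte markers. The acinar marker PIP alone averaged 7167 TPM in submandibular gland. The sublingual library of baboon 2 held 82104 TPM of 4 skeletal muscle markers. Squamous epithelial markers summed to 76767 TPM in the sublingual library of baboon 1 and to 18564 TPM in that of baboon 4. Liver and pancreas libraries carried their own markers: hepatocyte markers summed to at least 37654 TPM in every liver library and pancreatic acinar markers to at least 38136 TPM in every pancreas library. The 5 libraries left out in the fits below are the parotid, submandibular and sublingual libraries of baboon 2 and the parotid and submandibular libraries of baboon 5, and fits without 4 libraries keep the submandibular library of baboon 2. Both exclusions keep the sublingual libraries of baboons 1 and 4 with their squamous markers.

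CA6 carried most of the family's transcripts everywhere, from 81.0% ± 6.09 (SD, n = 5) of the summed level of the 10 members in liver to 97.9% ± 2.31 in submandibular gland. With CA6 set aside, the other 9 members summed to 72.6 ± 28.8 TPM in liver, 51.2 ± 36.1 TPM in sublingual gland, 42.5 ± 24.8 TPM in submandibular gland, 27.9 ± 6.57 TPM in pancreas and 19.8 ± 5.43 TPM in parotid gland (SD, n = 5 each). The member that led this remainder was CA4 in 5 of 5 pancreas libraries, CA2 in 4 of 5 liver libraries and CA2 in 4 of 5 submandibular libraries. CA12 led in 3 of 5 parotid libraries. Of the 5 sublingual libraries CA12 led in 2, CA2 in 2 and CA14 in 1. In bulk tissue, fewer cells of a type and less RNA per cell cannot be told apart.

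**Figure D1:**
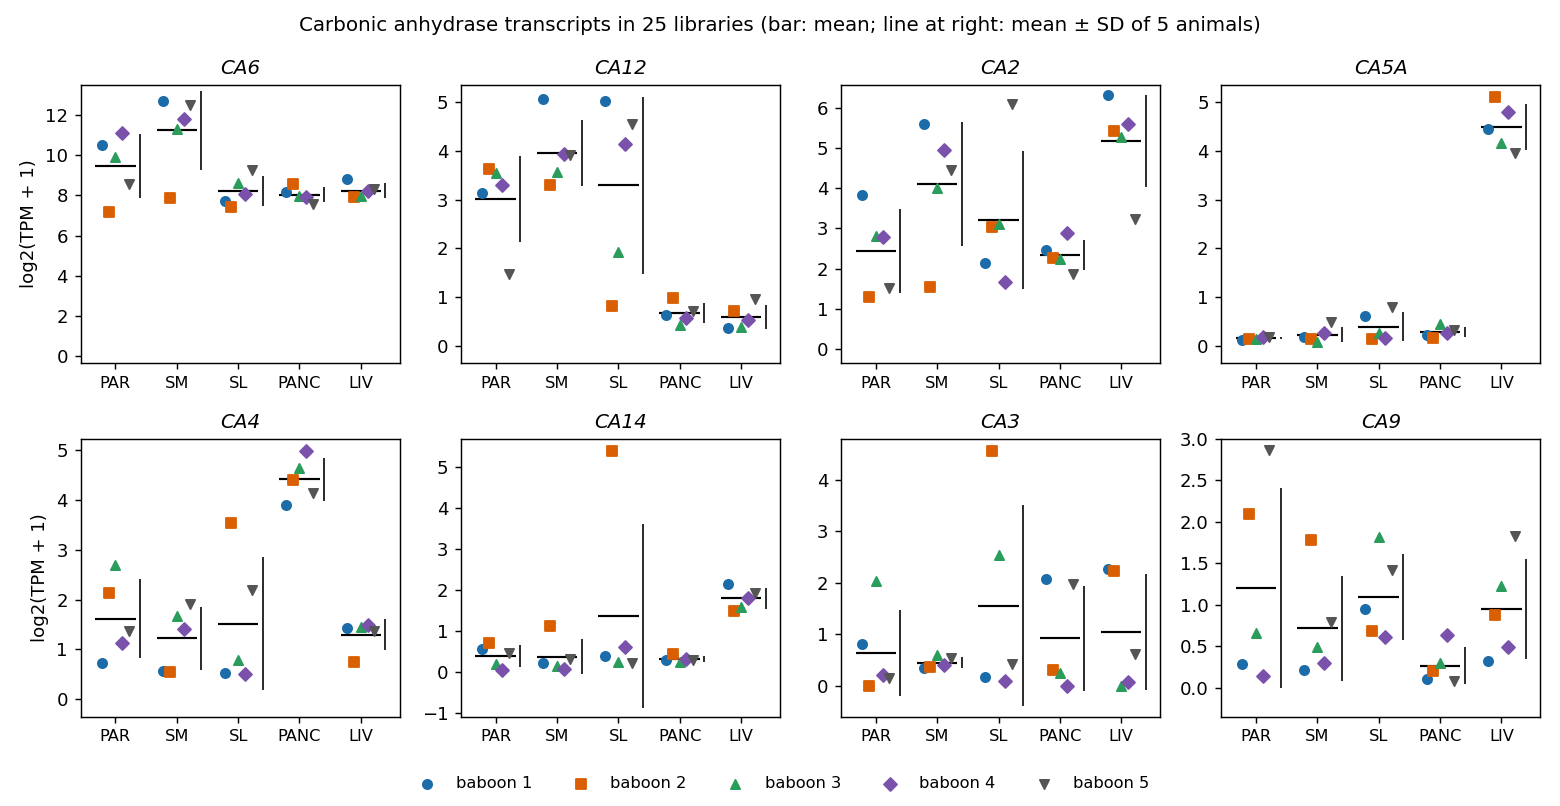
Levels of the 8 members tested, as log2(TPM + 1), in each library of parotid (PAR), submandibular (SM) and sublingual gland (SL), pancreas (PANC) and liver (LIV). Each symbol is 1 animal, the bar is the mean and the line at the right the mean ± SD on the log scale. CA5A stands above 14 TPM in all 5 liver libraries and below 1 TPM elsewhere, CA4 stands apart in the 5 pancreas libraries, and CA12 lies below 1 TPM in all 10 pancreas and liver libraries.

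Tissues were compared with limma on log2(TPM + 1), with the animal as a term, over the 14991 genes whose mean reached 1 TPM in some tissue. A gene was called where its adjusted p was under 0.05 and its fitted log2 fold change at least 1 in size. Of the 10 members, 8 were tested and CA1 and CA13 were below that level. Against the pancreas, 2 of the 8 members were called in the parotid gland, where 3.82% of all genes were called, 3 in the submandibular gland (4.08% of all genes) and 2 in the sublingual gland (9.47%). Against the liver, 3 members were called in the pancreas (17.5% of all genes), 3 in the parotid gland (13.8%), 3 in the submandibular gland (16.5%) and 2 in the sublingual gland (15.4%). Between glands no member was called, nor was any of the 14991 genes between parotid and submandibular gland (0%). The other 2 gland pairs had calls at 0.113% of all genes (parotid against sublingual) and 0.0667% (submandibular against sublingual). In those 3 gland pairs an unadjusted p under 0.05 was reached by CA6 and CA2 between parotid and submandibular gland and by CA6 between submandibular and sublingual gland.

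**Figure D2:**
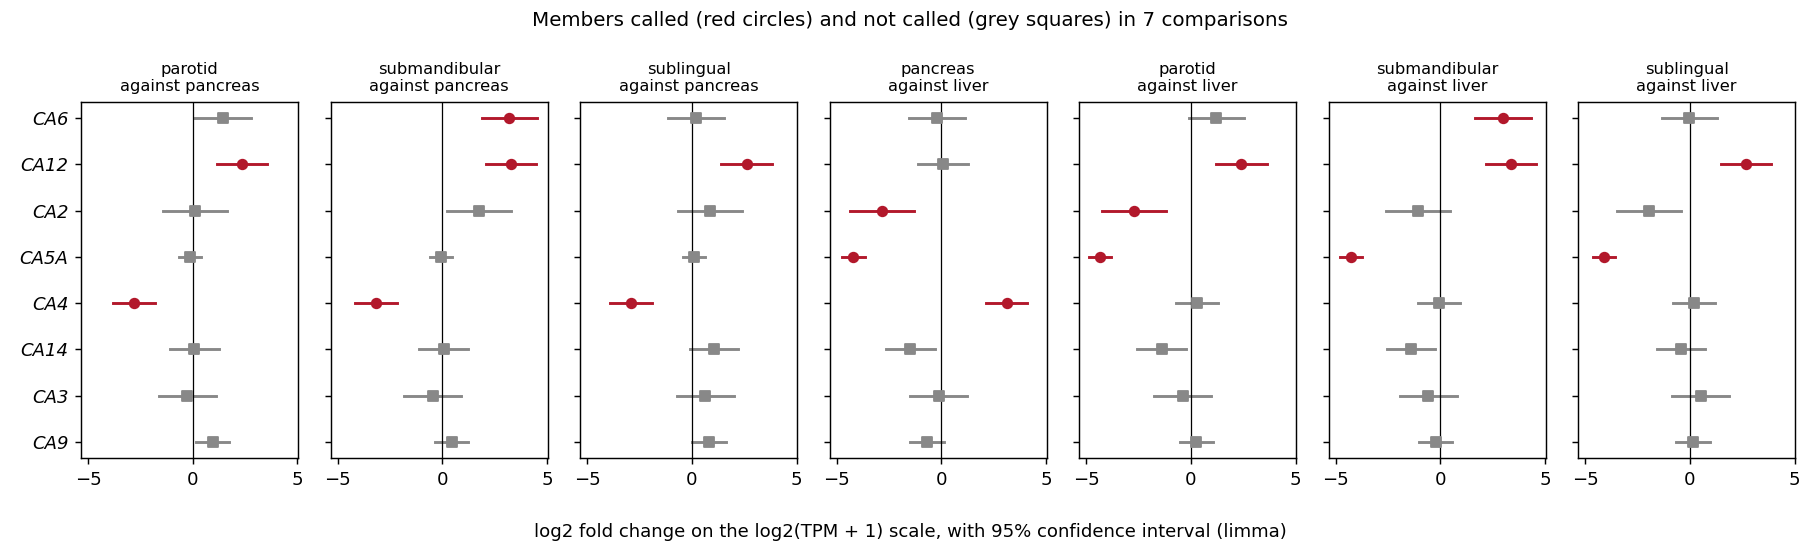
Fitted log2 fold changes of the 8 tested members on the log2(TPM + 1) scale, with limma's 95% confidence interval, in the 7 comparisons with pancreas or liver; positive values are higher in the tissue named first. Red circles passed the threshold and grey squares did not. CA12 lies to the right in all 6 comparisons of a gland with pancreas or liver, and CA5A lies near -4 in the 4 comparisons with liver.

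CA6, the only secreted member and a known protein of saliva, was highest in the submandibular gland. The submandibular libraries of baboons 1 to 5 held CA6 at 6577, 231, 2566, 3571 and 5765 TPM, a mean of 3742 ± 2543 TPM (SD, n = 5). The parotid libraries held 1455, 145, 973, 2181 and 377 TPM, and the sublingual libraries 210, 173, 394, 263 and 606 TPM. In both the parotid and the submandibular gland the lowest library was that of baboon 2, and it lay within the range of the sublingual libraries or below it. Pancreas libraries held 282, 380, 248, 243 and 186 TPM and liver libraries 444, 242, 248, 294 and 316 TPM. The pancreas and liver ranges overlapped each other, and each overlapped the sublingual range.

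The submandibular gland exceeded the pancreas by 3.20 on the log2 scale for CA6 (SE 0.64, adjusted p = 0.00276), a fitted 9.21-fold difference in TPM + 1. In 4 of 5 animals the submandibular gland was higher. It exceeded the liver by 2.99 (SE 0.64, adjusted p = 0.00152), again in 4 of 5 animals. In both cases baboon 2 was the exception. Without baboon 2 the differences were 4.18 (adjusted p = 2.34e-05) from pancreas and 3.76 (adjusted p = 1.98e-05) from liver, and without the 5 libraries 3.99 (adjusted p = 9.07e-06) and 3.78 (adjusted p = 3.15e-06). The call against the pancreas was lost where the TPM values were rescaled, with an adjusted p of 0.0522 under TMM and 0.0538 under median-of-ratios factors, and in a fit of those 2 tissues alone (0.0698).

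The parotid gland and the comparisons among glands were examined for CA6 after its values had been seen. The parotid difference was 1.43 against the pancreas (SE 0.64, adjusted p = 0.245) and 1.22 against the liver (SE 0.64, adjusted p = 0.242), with 4 of 5 animals higher in the parotid gland each time. Without baboon 2 the difference from the pancreas was 2.13 (adjusted p = 0.0208) and that from the liver 1.70 (adjusted p = 0.0261). Without the 5 libraries, CA6 in the parotid gland was called higher than in pancreas (2.56, adjusted p = 0.000814), liver (2.35, adjusted p = 0.000381) and sublingual gland (2.15, adjusted p = 0.00196). In that last fit, 40.1% of all genes were called between parotid and sublingual gland. The exclusion was added after seeing the data. It removes the lowest parotid CA6 values, 145 TPM in baboon 2 and 377 TPM in baboon 5. Over all genes, parotid calls reached up to 1226 against pancreas and 5291 against liver over the alternatives, against 572 and 2064. The value of CA6 in parotid against sublingual gland with all libraries was 1.24 (adjusted p = 0.601).

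Between submandibular and sublingual gland the CA6 difference was 3.02 (SE 0.64), in 5 of 5 animals, at an adjusted p of 0.0700. It was called without baboon 2 (3.67, adjusted p = 0.00119) and without the 5 libraries (3.58, adjusted p = 0.000229), fits in which 16.9% and 48.5% of all genes were called in that comparison. Between parotid and submandibular gland it was -1.78 (SE 0.64, 95% interval -3.11 to -0.45), with all 5 animals higher in the submandibular gland and an adjusted p of 1, and without the 5 libraries it was -1.43 (adjusted p = 0.996). In order of mean level, CA6 thus ran from submandibular through parotid, sublingual and liver to pancreas, and no pair of neighbours in that order was called.

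CA6 was present at 7.15% of its submandibular mean in the pancreas and at 8.25% in the liver. PIP, a secreted salivary protein, stood at 8.33% and 8.91% of its submandibular mean in those organs, the salivary peroxidase LPO at 7.17% and 8.04%, the water channel AQP5 at 5.82% and 5.69%, and PRR27 at 3.11% and 3.13%. In sublingual gland PIP, LPO and AQP5 stood at 192%, 125% and 122% of their submandibular means, so their percentages depend on the reference tissue. The sublingual PIP mean rests mainly on the library of baboon 5. Acinar markers with PIP among them summed to 61812 TPM there and to 284 to 5544 TPM in the other sublingual libraries. PIP in parotid gland stood at 8.19%. In the other direction, the pancreatic enzymes CPA1, CEL and CTRB2 stood in liver at 0.821%, 0.863% and 1.15% of their pancreas means. In pancreas albumin (ALB) stood at 0.955%, APOA1 at 0.678% and transthyretin (TTR) at 3.24% of their liver means. TTR was lower in the glands, at 0.533% to 0.967%. The part of salivary RNA or reads in the CA6 values of pancreas and liver was not tested. These comparison genes were chosen from the marker lists after values had been seen. The salivary acinar list also holds BHLHA15 and SLC12A2, whose percentages are not given here. Of its 6 genes, 1 was called lower in sublingual gland than in pancreas (2.49% of all genes) and 1 higher in pancreas than in liver (2.86%).

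**Figure D3:**
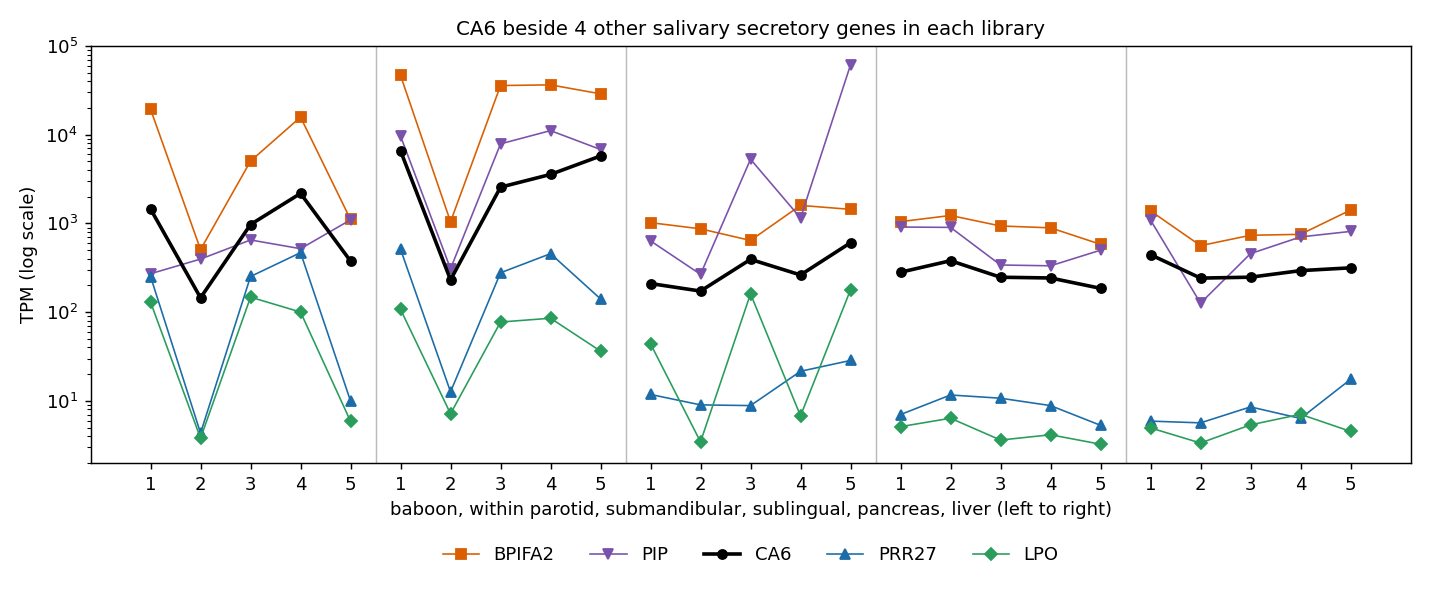
TPM on a log scale of CA6 and of the salivary genes BPIFA2, PIP, PRR27 and LPO in each of the 25 libraries, by tissue and baboon; lines only guide the eye within a tissue. CA6 and BPIFA2 are both low in the parotid and submandibular libraries of baboon 2, where CA6 is at 145 and 231 TPM, and CA6 spans 186 to 444 TPM in pancreas and liver.

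The 3 genes whose levels followed CA6 most closely over the 25 libraries were BPIFA2 (Pearson r = 0.96), PRR27 (r = 0.91) and PGLYRP1 (r = 0.87), among 12884 named genes compared on log2(TPM + 1). All libraries of a tissue enter these correlations together, so they mostly restate the tissue pattern. BPIFA2, which encodes a secreted salivary protein of the BPI fold family, averaged 29797 TPM in submandibular gland, 8372 TPM in parotid gland and 1115 TPM in sublingual gland. Its level in the parotid and submandibular libraries of baboon 2 was 507 and 1044 TPM.

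CA12, a transmembrane enzyme with its active site outside the cell, separated all 3 glands from pancreas and liver. The parotid libraries held CA12 at 7.78, 11.3, 10.6, 8.78 and 1.76 TPM and the submandibular libraries at 32.6, 8.88, 10.9, 14.3 and 14 TPM, in the order of baboons 1 to 5. The sublingual libraries held 31.5, 0.762, 2.80, 16.5 and 22.4 TPM. No pancreas library exceeded 0.985 TPM and no liver library 0.962 TPM, so that parotid and submandibular libraries did not overlap with either organ. The sublingual library of baboon 2, with the muscle transcripts, was the only gland library within the range of the organs.

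CA12 was higher than in pancreas by 2.34 on the log2 scale in parotid gland (SE 0.58, adjusted p = 0.0192), by 3.29 in submandibular gland (SE 0.58, adjusted p = 0.000699) and by 2.62 in sublingual gland (SE 0.58, adjusted p = 0.00629). The same fit gave differences from liver of 2.41 (adjusted p = 0.00493), 3.36 (adjusted p = 0.000133) and 2.69 (adjusted p = 0.00176) in the same order. These comparisons share the pancreas or the liver libraries. All 5 animals showed each difference, except 4 of 5 for sublingual gland against pancreas. Without the 5 libraries, all 6 CA12 calls stood, at 2.84 to 3.78. That fit keeps the sublingual libraries of baboons 1 and 4, which held squamous markers. The parotid call against pancreas was lost without baboon 1, 3 or 4 and in the fit of 2 tissues, with adjusted p from 0.0684 to 0.175. The sublingual call against pancreas was lost without baboon 1 or 4 and in the fit of 2 tissues, with adjusted p from 0.0577 to 0.0848.

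Among sublingual libraries CA12 ranged 41.4-fold from the lowest to the highest. The highest, from baboon 1, also held 76767 TPM of squamous markers, and that of baboon 4 with 16.5 TPM of CA12 held 18564 TPM of them. The library of baboon 5, with 22.4 TPM, held 161 TPM of squamous markers and 61812 TPM of acinar markers, the most of any library. Among those acinar markers PIP averaged 13736 TPM in sublingual gland, against 78.7 TPM for LPO, 68.3 TPM for AQP5 and 15.9 TPM for PRR27. Pancreas libraries held 439 to 1044 TPM of the acinar markers. The part of squamous or acinar tissue in the CA12 level was not tested. Genes most like CA12 over the 25 libraries were GALNT12, DOP1B and CAMKK1, each at r = 0.91.

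CA4, which a lipid anchor holds to the outer face of the plasma membrane, was the only member with its highest mean in pancreas. CA6 had a higher mean in pancreas, 268 TPM. The pancreas libraries of baboons 1 to 5 held CA4 at 13.9, 20.02, 23.8, 30.9 and 16.6 TPM, a mean of 21.0 ± 6.62 TPM (SD, n = 5). Outside the pancreas the means were 3.18 TPM in sublingual gland, 2.46 TPM in parotid gland, 1.51 TPM in submandibular gland and 1.5 TPM in liver, and none of these neighbours was called different. The highest library outside the pancreas was the muscle-bearing sublingual library of baboon 2, at 10.7 TPM. No library of another tissue reached the lowest pancreas library.

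CA4 was lower than in pancreas by 2.80 on the log2 scale in parotid gland (SE 0.48, adjusted p = 0.000526). The differences were -3.19 for submandibular gland (SE 0.48, adjusted p = 9.73e-05) and -2.90 for sublingual gland (SE 0.48, adjusted p = 0.000351). CA4 in pancreas exceeded liver by 3.11 (SE 0.48, adjusted p = 2.97e-05), a fitted 8.65-fold difference in TPM + 1. Every animal showed each of the 4 differences, and all 4 passed the threshold under each of the 14 alternatives tried, with a largest adjusted p of 0.0324. The genes most like CA4 were PKIB (r = 0.88), BRSK2 (r = 0.87) and RNF212B (r = 0.86), which averaged 55.7, 9.37 and 4.44 TPM in pancreas. Their rank correlations with CA4 (Spearman rho) were 0.64, 0.68 and 0.67.

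CA14, a transmembrane enzyme known from liver and muscle, was low in all but 1 library, with its next highest levels in liver. The liver libraries held CA14 at 3.46, 1.84, 2.03, 2.51 and 2.80 TPM, a mean of 2.53 ± 0.65 TPM (SD, n = 5). Pancreas libraries lay between 0.186 and 0.365 TPM, parotid libraries between 0.0379 and 0.626 TPM and submandibular libraries between 0.0507 and 1.2 TPM, all below the lowest liver library. The sublingual library of baboon 2 held 40.8 TPM, 16.2 times the liver mean, and the other 4 sublingual libraries 0.160 to 0.524 TPM.

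The liver libraries did not overlap with pancreas, parotid or submandibular libraries in CA14, and none of those differences was called. They were -1.48 for pancreas (SE 0.56, adjusted p = 0.0709), -1.40 for parotid gland (SE 0.56, adjusted p = 0.105) and -1.42 for submandibular gland (SE 0.56, adjusted p = 0.0866). Libraries of the 2 tissues did not overlap for 38.5%, 10.8% and 15.6% of all genes in these 3 comparisons. Without the animal whose sublingual library held muscle, all 3 CA14 differences were called, from -1.68 to -1.55, with a largest adjusted p of 9.13e-06. The shared estimate of spread includes that 1 sublingual value, and the 3 differences were also called in fits of the 2 tissues alone (largest adjusted p = 0.0188).

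CA3, a cytosolic enzyme abundant in slow skeletal muscle, had its highest value in the same library. The sublingual libraries held CA3 at 0.128, 22.6, 4.82, 0.0576 and 0.337 TPM. Levels of 2.92 TPM or more otherwise occurred in the liver libraries of baboons 1 and 2 (3.81 and 3.72 TPM), the pancreas libraries of baboons 1 and 5 (3.20 and 2.92 TPM), and in baboon 3 in the parotid gland (3.09 TPM). In every tissue except the submandibular gland, CA3 was thus uneven among animals, and no comparison was called. The summed muscle markers in the 2 higher liver libraries were 525 and 584 TPM, against 5.70 to 19.4 TPM in the other 3, in which CA3 was between 0 and 0.535 TPM. The parotid library of baboon 3, with the highest parotid CA3, held 23.6 TPM of these markers. The pancreas libraries of baboons 2 and 4 had the most in that organ, 422 and 308 TPM, with CA3 at 0.231 TPM and listed at 0, while that of baboon 5 had 168 TPM with CA3 at 2.92 TPM. The parotid library of baboon 1 held 547 TPM and the submandibular library of baboon 2 627 TPM of muscle markers, with CA3 at 0.747 and 0.279 TPM. The part of muscle RNA in the CA3 and CA14 levels was not tested.

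**Figure D4:**
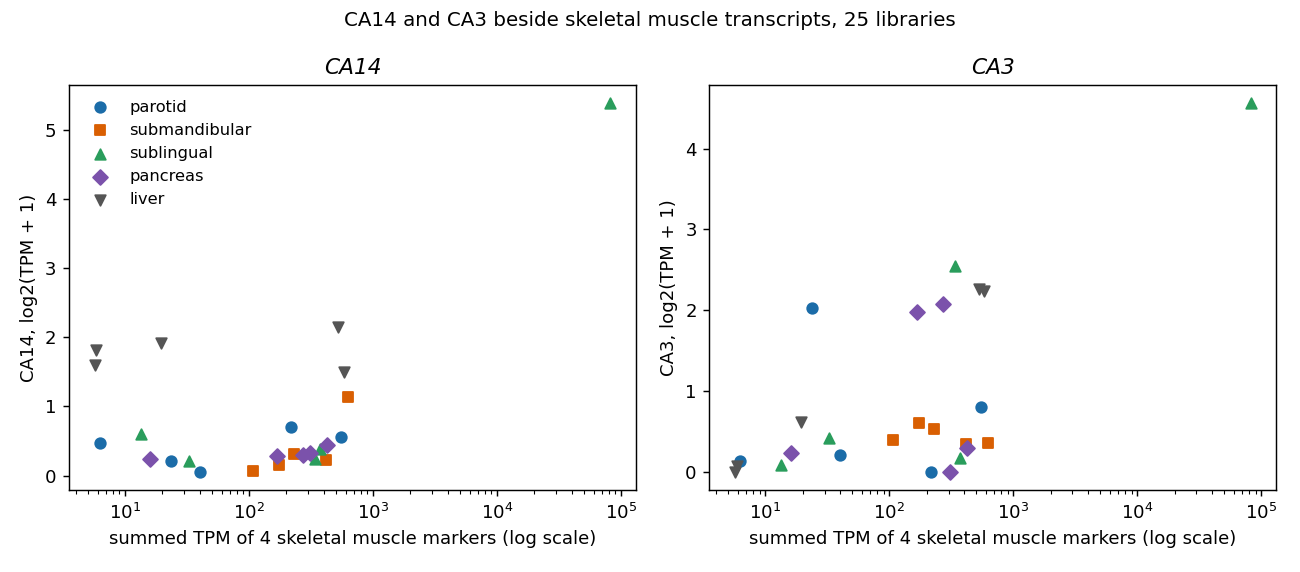
CA14 (left) and CA3 (right), as log2(TPM + 1), against the summed TPM of 4 skeletal muscle markers on a log scale, 1 symbol per library and 1 colour per tissue. The sublingual library at 82104 TPM of muscle markers holds the highest value of both genes, and the 5 liver libraries lie above all pancreas, parotid and submandibular libraries in CA14 at any muscle level.

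CA9, a membrane enzyme best known as a target of the hypoxia response, was low throughout and uneven among animals. The parotid libraries held CA9 at 0.217, 3.27, 0.582, 0.10 and 6.27 TPM, so that baboons 2 and 5 stood apart from the other 3. The submandibular libraries held 0.162, 2.44, 0.407, 0.228 and 0.730 TPM, again with baboon 2 highest. Sublingual libraries ranged from 0.523 to 2.52 TPM, liver libraries from 0.248 to 2.55 TPM and pancreas libraries from 0.0597 to 0.560 TPM. No comparison was called for CA9 with all libraries. The differences nearest to a call were those of parotid and sublingual gland from pancreas, at unadjusted p of 0.0230 and 0.0430 (adjusted p = 0.204 and 0.149). The parotid libraries of baboons 2 and 5 and the submandibular library of baboon 2 are among the 5 left out in some fits for their other tissue. Their endothelial markers summed to 248, 103 and 206 TPM, against 1.88 to 31.4 TPM in the other gland libraries except the submandibular one of baboon 5 (47.1 TPM). The part of this in the CA9 levels was not tested.

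A list of 10 genes of the hypoxia response was read beside CA9. EGLN3, an oxygen-sensing hydroxylase, stood at 29.8 and 11 TPM in the parotid libraries of baboons 5 and 2, those highest in CA9, and at 2.54 to 2.86 TPM in the other 3. In the sublingual gland EGLN3 was highest in the library of baboon 2, at 40.5 TPM, where CA9 was at 0.60 TPM. Of the 10 genes, 3 were called higher and 1 lower in sublingual gland than in pancreas, where 6.97% of all genes were called higher and 2.49% lower. They were EGLN3 (2.32, adjusted p = 0.00869), the glucose transporter SLC2A1 (2.29, adjusted p = 0.0197), ANKRD37 (1.58, adjusted p = 0.0249) and, lower, the vascular growth factor VEGFA (-1.55, adjusted p = 0.0316). The median of the 10 genes there was 1.35, against 0.63 for all genes. In the parotid comparison 1 was called higher (1.41% of all genes) and 1 lower (2.4%), and in the submandibular comparison 1 lower (2.81%). Between pancreas and liver none was called with all libraries. Lower in pancreas were 3 without the 5 libraries, 4 in the fit of 2 tissues, 2 without 4 libraries and 1 with a pseudocount of 0.1 TPM. Under each scaling 1 was higher. Over all genes the calls between pancreas and liver ran from 1731 to 4308 over the alternatives, against 2623. The call of EGLN3 in parotid gland (1.98, adjusted p = 0.0363) was kept in 3 of 14 alternatives, and the difference was 0.95 (adjusted p = 0.0676) without the 5 libraries. Against the pancreas in sublingual gland, 6 of the 10 were higher and 1 lower without those libraries, and under TMM 2 were higher and 1 lower. Leaving out each animal gave 0 to 4 higher and 0 to 1 lower, with no call of either kind without baboon 1. Calls over all genes moved too: under TMM 623 were higher and 998 lower, against 1045 and 374 on the unscaled TPM. Leaving out each animal gave 392 to 2942 called genes, and all alternatives up to 5098, against 1419. The list counts of these fits are therefore not to be read beside 6.97% and 2.49%. Of the 14 alternatives, the sublingual call of EGLN3 was kept in 13, those of SLC2A1 and VEGFA in 9 each and that of ANKRD37 in 8; the VEGFA call was also lost without the replicate block.

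CA2, the fast cytosolic enzyme of many secretory epithelia, was highest in liver. The liver libraries held CA2 at 78.2, 41.9, 37.8, 47.5 and 8.47 TPM, a mean of 42.8 ± 24.9 TPM (SD, n = 5), with the male, baboon 5, lowest. The submandibular libraries held 47.1, 1.94, 15, 29.8 and 20.8 TPM. The levels in parotid gland were 13.3, 1.45, 5.97, 5.91 and 1.84 TPM. In both glands baboon 1 was highest and baboon 2 lowest. The sublingual libraries held 3.38, 7.16, 7.66, 2.16 and 66.8 TPM, of which the last, from baboon 5, was 13.1 times the mean of the other 4. Pancreas libraries lay between 2.62 and 6.44 TPM, below every liver library.

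CA2 was lower in pancreas than in liver by 2.83 on the log2 scale (SE 0.74, adjusted p = 0.00786), a fitted 7.09-fold difference in TPM + 1. All of 5 animals were lower in pancreas. It was also lower in parotid gland than in liver (-2.73, SE 0.74, adjusted p = 0.0126), in 5 of 5 animals. Rescaling moved the first difference to -2.23 under TMM (adjusted p = 0.0857) and -2.20 under median-of-ratios factors (adjusted p = 0.0896), and it was also lost without baboon 3 (adjusted p = 0.0592). The parotid call was lost in 7 of 14 alternatives, both scalings and both exclusions of libraries among them, where its value lay between -2.31 and -1.96.

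Other CA2 differences, chosen after their values were seen, did not pass the threshold. The submandibular gland differed from the pancreas by 1.76 (SE 0.74, adjusted p = 0.288), with 4 of 5 animals higher, and from the liver by -1.06 (adjusted p = 0.380). Without the 5 libraries these were 2.57 (adjusted p = 0.0698) and -0.25 (adjusted p = 0.832). Parotid and submandibular gland differed by -1.66 (SE 0.74, adjusted p = 1), with all 5 animals higher in the submandibular gland, and by -1.70 without the 5 libraries. The sublingual difference from liver was -1.97 (adjusted p = 0.0750) with all animals and -3.17 (adjusted p = 0.00139) without baboon 5. The genes most like CA2 were ATP2B2 and C10H2orf72, both at r = 0.81, and RHPN2 at r = 0.80. By Pearson r these were lower than the best likeness of the other members with at least 10 TPM in a tissue.

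CA1 and CA13, the remaining cytosolic members, were close to the lower end of the table. CA1, the abundant carbonic anhydrase of red blood cells, was listed at 0 in 17 of 25 libraries and reached 0.163 TPM at most, in the liver of baboon 3. It was listed at 0 in the submandibular library of baboon 2, in which erythroid markers summed to 6014 TPM. CA13 was above 0 in 11 of 15 gland libraries, up to 0.686 TPM in the sublingual library of baboon 5, and was listed at 0 in all 10 pancreas and liver libraries. Because both fell below the level required, neither was tested with the other members. In the Panubis1.0 annotation of RefSeq, CA13, CA1, CA3 and CA2 follow each other as neighbouring protein-coding genes. Their highest tissue means were 0.223, 0.0690, 5.58 and 42.8 TPM, in submandibular gland, liver, sublingual gland and liver respectively.

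CA5A, the mitochondrial enzyme that feeds bicarbonate to carbamoyl phosphate synthesis and pyruvate carboxylation, reached 1 TPM in liver libraries only. CA6 and CA2 had higher means in liver, 309 and 42.8 TPM. The liver libraries held CA5A at 21.0, 33.4, 16.8, 26.8 and 14.5 TPM, a mean of 22.5 ± 7.68 TPM (SD, n = 5). The highest of the other 20 libraries was at 0.739 TPM, in the sublingual gland of baboon 5, so liver and the rest did not overlap. Other tissues stood at 0.521% (parotid) to 1.51% (sublingual) of the liver mean.

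The CA5A difference from liver was -4.21 for pancreas (SE 0.26, adjusted p = 7.11e-12) and -4.33 for parotid gland (SE 0.26, adjusted p = 3.06e-12). For submandibular gland it was -4.26 (SE 0.26, adjusted p = 3.46e-12) and for sublingual gland -4.10 (SE 0.26, adjusted p = 1.03e-11). All 4 comparisons share the liver libraries. All 4 were called under each of the 14 alternatives, and a pseudocount of 0.1 TPM in place of 1 widened them to between -6.64 and -5.85. DAO, SLC2A2 and GYS2 were most like CA5A, each at r = 0.99, and averaged 28.6, 62.1 and 14.8 TPM in liver. Their rank correlations with CA5A (Spearman rho) were lower, at 0.58, 0.68 and 0.70, and the tissue pattern enters both measures. SLC2A2 is the glucose transporter of hepatocytes and GYS2 the liver form of glycogen synthase.

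Enzymes that use bicarbonate, with 2 partners, were read beside CA5A as a list of 11 genes, 10 of which were tested. In liver, 7 of the 10 were called higher than in pancreas, against 14.6% of all genes called in that direction, and none was called lower. Their median difference was -2.72 against -0.44 over all genes. CPS1, the first enzyme of the urea cycle and also one of the hepatocyte markers, was at 50.5 ± 16.9 TPM in liver and 1.58 ± 0.55 TPM in pancreas (SD, n = 5), a difference of -4.28 (SE 0.30, adjusted p = 4.79e-11). Pyruvate carboxylase (PC) was at 47.7 ± 5.60 TPM in liver and 3.34 ± 0.41 TPM in pancreas, a difference of -3.48 (adjusted p = 1.34e-05). The liver glutaminase GLS2, a partner that makes ammonia and does not use bicarbonate, differed by -3.81 (adjusted p = 2.09e-08) and the propionyl-CoA carboxylase subunit PCCA by -3.11 (adjusted p = 1.55e-05).

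Of the same 10 genes, 6 were called higher in liver than in parotid gland (10.9% of all genes in that direction), 7 than in submandibular gland (13.9%) and 6 than in sublingual gland (9.52%), and none lower. CPS1, GLS2, PC and PCCA were among them in each comparison, although PC in submandibular gland was lost without baboon 1, 3 or 4. Calls of CAD, ACACB and PCCB, named after their values were seen, were also lost in some fits. CAD in pancreas against liver was lost without each animal in turn. Against liver, ACACB in parotid gland was lost without baboon 1, 3 or 4 and PCCB in sublingual gland without baboon 3 or 4. Between the glands and the pancreas none of the 10 was called on the unscaled TPM with all libraries. Under TMM and under median-of-ratios scaling 1 was called lower in each gland, and without the 5 libraries 1 was called higher and 2 lower in parotid gland and 2 lower in submandibular gland. Over all genes, TMM called 832, 828 and 998 lower in parotid, submandibular and sublingual gland than in pancreas, against 360, 421 and 374 on the unscaled TPM. Without the 5 libraries the counts against liver were 8 for pancreas, 9 for parotid, 8 for submandibular and 6 for sublingual gland. Under TMM they were 6, 7, 7 and 6. The submandibular count fell to 4 without baboon 1, 3 or 4. In the same order, TMM called 1678, 1922, 1853 and 1834 of all genes higher in liver, against 2195, 1639, 2083 and 1427 on the unscaled TPM. In either direction the calls over all genes reached up to 4308, 5291, 6234 and 4204 over the alternatives, against 2623, 2064, 2474 and 2316.

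Transporters of bicarbonate, protons and lactate formed a list of 22 genes, of which 19 were in the table and 12 were tested. Against the pancreas, 2 were called lower in parotid gland (2.4% of all genes) and 1 in submandibular gland (2.81%), and 2 were called higher (6.97%) and 2 lower (2.49%) in sublingual gland. Between pancreas and liver, 2 were higher (2.86%) and 2 lower (14.6%). Without the 5 libraries the calls against pancreas were 4 lower in parotid gland, 3 lower in submandibular gland, and 5 higher and 2 lower in sublingual gland. Leaving out 1 animal gave, in sublingual gland, 0 higher without baboon 1 or 4, 1 without baboon 3 and 4 without baboon 2. Over all genes, calls against pancreas in either direction reached up to 1226 in parotid, 1471 in submandibular and 5098 in sublingual gland over the alternatives, against 572, 611 and 1419. Leaving out 1 animal gave 392 to 2942 in sublingual gland. The transporter counts of these fits are therefore not to be read beside the shares given above.

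Monocarboxylate transporters and their partner differed between tissues. SLC16A3, which exports lactate, was higher in sublingual gland than in pancreas by 2.58 (SE 0.66, adjusted p = 0.0184), with its highest level, 65.2 TPM, in the library that held muscle. Without the 5 libraries the SLC16A3 difference was 1.99 (adjusted p = 0.00112), and the call was lost without baboon 1, 3 or 4. SLC16A1 was lower in pancreas than in liver by 2.42 (SE 0.58, adjusted p = 0.00348) and its partner protein BSG by 2.16 (SE 0.64, adjusted p = 0.0196). The BSG call was lost without baboon 1, 3 or 4.

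The sodium bicarbonate cotransporter SLC4A4 and the chloride and bicarbonate channel CFTR were named after their values were seen. Both were called higher in pancreas than in parotid gland, sublingual gland and liver. SLC4A4 was at 3.86 ± 1.07 TPM in pancreas and at or below 0.250 TPM in every parotid and submandibular library. Its differences from pancreas were -2.16 in parotid gland (adjusted p = 5.50e-06) and -2.14 in submandibular gland (adjusted p = 5.72e-06), and without the 5 libraries -2.17 (adjusted p = 0.000148) and -2.19 (adjusted p = 0.000131). CFTR averaged 4.48 ± 1.55 TPM in pancreas, against 2.60 ± 2.15 TPM in submandibular gland (SD, n = 5), with overlapping libraries and no call. CFTR was higher in submandibular gland than in liver by 1.35 (adjusted p = 0.00796), a call lost without baboon 1 or 4. In parotid gland CFTR was lower than in pancreas by 2.12 (SE 0.35, adjusted p = 0.000297), and by 2.05 without the 5 libraries (adjusted p = 0.00122). The sublingual differences from pancreas were -1.79 for SLC4A4 (adjusted p = 8.25e-05) and -1.84 for CFTR (adjusted p = 0.00152). Pancreas exceeded liver by 1.37 for SLC4A4 (adjusted p = 0.000470) and by 2.14 for CFTR (adjusted p = 5.76e-05).

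Other relatives in the family were CA5B, CA7, CA8, CA10, CA11, PTPRG and PTPRZ1, of which 4 were tested. CA8, a relative without catalytic activity, was at 33.6, 19.2, 10.8, 15.4 and 5.75 TPM in liver and was the only one called with all libraries. PTPRZ1, a receptor phosphatase with a carbonic anhydrase-like domain, was called higher in sublingual gland without the 5 libraries, by 1.2 than in pancreas (adjusted p = 0.000255) and by 1.11 than in liver (adjusted p = 0.000277). It was also called in both comparisons without 4 libraries, without baboon 2 and with a pseudocount of 0.1 TPM. Over all genes, sublingual calls reached up to 5098 against pancreas and 4204 against liver over the alternatives, against 1419 and 2316 with all libraries. CA8 was lower than in liver by 2.20 in pancreas (SE 0.57, adjusted p = 0.00709), by 2.91 in parotid gland (adjusted p = 0.000618), by 3.20 in submandibular gland (adjusted p = 0.000181) and by 1.91 in sublingual gland (adjusted p = 0.0219). The sublingual call was lost without baboon 1, 2 or 4 and in the fit of 2 tissues, and the other 3 were kept under all 14 alternatives. In liver both CA8 and CA2 were highest in baboon 1 and lowest in baboon 5. CA5B, the other mitochondrial enzyme of the family, was between 1.24 and 34.7 TPM in parotid gland, with its highest value in the library of baboon 2 that held adipocyte markers, and between 1.68 and 4.68 TPM in pancreas and liver.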

How the data were processed

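Per the file headers and the labels, the authors deposited 1 table of kallisto abundances in TPM, a length-scaled abundance, for 21287 genes in 25 baboon libraries; every column has the same total. Per the labels' protocols, RNA came from sections of frozen tissue and was sequenced as paired reads on an Illumina HiSeq. Per the submitters' processing notes, FastQC, MultiQC, cutadapt, HISAT2, kallisto, SAMtools, featureCounts and DESeq2 were used, with no versions; the genome build is not given in the sources used here. TPM values keep no depth, so no count model was run and no counting interval is given.

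Groups came from the labels. The 14991 genes whose mean reached 1 TPM in a tissue were fitted in limma 3.58.1 (R 4.3.3) on log2(TPM + 1), which understates changes of low genes, with tissue and animal as terms over all 25 libraries. P-values were adjusted by Benjamini-Hochberg over the 14991 genes within each of 10 comparisons. A call needed an adjusted p under 0.05 and a log2 fold change of at least 1. Libraries with the same number come from the same animal, per the labels; their deviations from the tissue means correlated at 0.16 (50 pairs), against -0.04 for different animals (200 pairs). The replicates are separate animals.

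Alternatives were the fit without the animal term, TMM factors, median-of-ratios factors, no filter, a filter at 5 TPM, a pseudocount of 0.1 TPM, only the 2 tissues compared, leaving out each animal, and leaving out 4 libraries that held other tissue. A version without 5 such libraries was added after seeing the data. The script was tested on simulated data.

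The members and gene lists were chosen with earlier results of these data known. Fold changes are given for members called, or not overlapping, in a comparison; for each list, up to 4 called genes with the largest change against or in pancreas are named; for members with at least 10 TPM in a tissue, the 3 genes most alike by Pearson correlation are named. Other genes are said to be chosen after their values were seen. The results of 1 gene that this rule would name, and the list counts that rest on it, are not reported here. RefSeq's Panubis1.0 gene table matched all 21287 identifiers and served for names and gene order only. No sequences were used here.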

Additional observations from a re-analysis of the deposited data

Results flagged for a closer look

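In 12 of the 48 sets of 5 libraries of 1 tissue that could be checked (10 members in 5 tissues, less the 2 sets in which CA13 is listed at 0 throughout), the highest or lowest library stood apart from the others by Dixon's criterion, a gap of more than 0.71 of the range. Chance alone flags about 1 in 20 sets of normally spread values; TPM near 0 is not so spread, and the 3 sets of CA1 with 4 values at 0 are flagged by any value above 0. Among the sublingual values were CA2 at 66.8 TPM in baboon 5, and CA14 at 40.8 TPM and CA3 at 22.6 TPM in baboon 2, the library with 82104 TPM of muscle markers. CA12 in the submandibular gland of baboon 1 was at 32.6 TPM against 8.88 to 14.3 TPM in the other 4. CA3 was at 3.09 TPM in the parotid gland of baboon 3. The submandibular library of baboon 2 stood apart in CA9 at 2.44 TPM and in CA14 at 1.2 TPM. CA4 was low in the liver of baboon 2, at 0.685 TPM against 1.59 to 1.80 TPM in the other 4. CA13 was at 0.686 TPM in the sublingual gland of baboon 5. CA1 was above 0 in only 1 library of 3 tissues: 0.107 TPM in the submandibular gland of baboon 5, 0.0838 TPM in the sublingual gland of baboon 3 and 0.0691 TPM in the pancreas of baboon 2.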

How the results depend on the processing

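Of the 18 member calls, none reversed under any of the 14 alternatives. All 18 were kept without the replicate block, without a filter, with the filter at 5 TPM, with a pseudocount of 0.1 TPM and without baboon 5; 15 were kept under TMM, under median-of-ratios scaling, in fits of 2 tissues and without baboon 3 or 4, 16 without baboon 1, and 17 without baboon 2, without 4 libraries or without 5 libraries. The block changed no member call. In fits of 2 tissues, 1 member was called in parotid against pancreas and 1 in sublingual against pancreas, in place of 2 each. Without the 5 libraries 1 was called in parotid against sublingual gland, and without 4 or 5 libraries 1 in submandibular against sublingual gland, in place of 0. Over all genes, 40.1% were called in the first of these fits and 11.2% and 48.5% in the other two. Leaving out each animal gave 1 to 3 members for parotid against pancreas, 1 to 2 for sublingual against pancreas and 0 to 1 for submandibular against sublingual gland; these include the fits without baboon 1, 3 or 4 that lost CA12 and that without baboon 2 that gained CA6. It gave 3 for submandibular against pancreas, 2 to 4 for pancreas and for parotid gland against liver, 3 to 4 for submandibular and 2 to 3 for sublingual gland against liver.

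Counts over all genes moved more. Over all alternatives, parotid against pancreas (572) ran from 208 to 1226, submandibular against pancreas (611) from 324 to 1471, sublingual against pancreas (1419) from 392 to 5098, pancreas against liver (2623) from 1731 to 4308, parotid against liver (2064) from 1336 to 5291, submandibular against liver (2474) from 1538 to 6234 and sublingual against liver (2316) from 1535 to 4204. Between glands the counts of 0, 17 and 10 reached 24, 6009 and 7278. The median difference of all genes was 0.45 for parotid and 0.63 for sublingual gland against pancreas and -0.44 for pancreas against liver, and TMM moved these to 0.06, 0.10 and -0.03. TMM also moved the share of calls higher in the tissue named first from 73.6% to 38.4% for sublingual against pancreas, from 16.3% to 38.8% for pancreas against liver, from 20.6% to 35.6% for parotid and from 15.8% to 38.4% for submandibular gland against liver, and from 17.6% to 49.1% for parotid against sublingual gland. The cause of these shifts was not tested. The 13 member calls kept under all 14 alternatives were the 4 of CA4, the 4 of CA5A, those of CA12 in submandibular gland against pancreas and in the 3 glands against liver, and that of CA6 in submandibular gland against liver. The precision of values below 1 TPM is unknown without depth.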
